A study of Homo sapiens with 6 samples.

Results

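De novo nucleotide synthesis was represented by 10 genes, which were all found by symbol among the 17177 genes of the deposited table. *PPAT*, *GART*, *PFAS*, *PAICS*, *ADSL* and *ATIC* encode the enzymes that assemble the purine ring, *IMPDH2* opens the guanylate branch, and *CAD*, *DHODH* and *UMPS* encode the enzymes that make the pyrimidine ring. NCI-H660 is an established cell line from neuroendocrine prostate cancer, labelled here as wild type. The cells were treated with pyrvinium pamoate (PP), an anthelmintic drug, or with PBS as the control, and RNA was taken on day 3 for 3 libraries per treatment. The dose of PP on these cells is not given in the sources used here, and all 6 libraries come from this single line. The comparison asks how transcript levels in PP-treated cells differ from those in PBS-treated cells.

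Purines are built stepwise on phosphoribosyl pyrophosphate (PRPP), with glutamine, glycine, aspartate and formyl groups carried by folate as donors, until inosine monophosphate (IMP) is reached and branches to adenylate and guanylate. Pyrimidines are made the other way round, since the ring is closed before it is joined to PRPP to give uridine monophosphate (UMP). Proliferating cells depend on both routes for RNA and DNA, and MYC family proteins and ATF4 are known to act on genes of these routes or of their supply.

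With PP, 6 of the 10 genes rose and 1 fell at an adjusted p under 0.05 from limma, and the other 3 did not pass this threshold. *PPAT* and *IMPDH2*, which control entry to the purine route and to its guanylate branch, rose most, by 80.6% and 52.4% of the PBS mean. The change of *GART*, *ADSL*, *ATIC* and *UMPS* was smaller, between 13.2% and 15.6%, and *PFAS* fell by 29.8%. Calls were common among all 11726 genes tested, of which 38.1% were higher and 34.4% were lower by the same rule, against 60% and 10% of these 10 genes. The median log2 fold change, computed throughout as PP minus PBS on log2(FPKM + 1), was 0.18 over the 10 genes and 0.02 over all tested genes. The median size of the change regardless of sign was 0.18 and 0.27, respectively, so the typical change of these genes was smaller than that of the tested genes as a whole. None of the 10 passed the cutoff that the methods name for limma, a P under 0.001 (taken as unadjusted) together with a log2 change beyond 1 or -1, which 5.18% of all tested genes passed. At an unadjusted P under 0.05, limma counted 7 of the 10, beside 8717 of all 11726 tested genes. With limma-voom on recovered counts, 0 of the 10 passed the cutoff of the study as well. Of the 11726 tested genes, 397 were higher and 559 were lower past it in that fit.

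The deposited unit is FPKM, fragments scaled to gene length and library size, so levels may be compared between genes. The values of each gene were whole multiples of a step, and the counts recovered from them came to between 29064253 and 32481171 per library. Between libraries of the same treatment, recovered counts varied by more than counting noise alone (chi-square per degree of freedom 3.37 to 7.07), and no library stood out as a copy of another. The labels do not say whether the 3 libraries came from separate cultures. The study describes them in a legend as independent samples and in its methods as duplicates, so P values measure the spread between libraries, which may be technical. Neuroendocrine markers were expressed, with all 8 on the list past the filter on low values, and 5 of them fell and 1 rose with PP. The 4 luminal prostate markers in the table summed to 0.843 to 1.43 FPKM with PBS and 0.412 to 0.81 with PP, and the lists for leukocytes, fibroblasts and endothelial cells to at most 2.07, 4.91 and 4.76. These marker changes ran alongside the changes described here, and their part in them was not tested. In bulk libraries, fewer cells of a type and less RNA per cell cannot be told apart.

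*PPAT* and *PAICS* lie head to head on chromosome 4 and are transcribed in opposite directions from a shared promoter region. The region is shown because *PPAT* rose with PP and *PAICS* did not pass the threshold. In GRCh38 (RefSeq), the *PPAT* start on the minus strand is at 56435615 and the nearest of the 3 *PAICS* starts listed, on the plus strand, is at 56435752. The 136 bases between the starts, chr4:56435616-56435751 on the plus strand, are the following.
PPAT-PAICS region: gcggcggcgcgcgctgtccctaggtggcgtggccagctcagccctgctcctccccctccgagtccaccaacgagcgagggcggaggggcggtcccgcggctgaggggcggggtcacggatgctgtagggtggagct

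Windows of 300 bases, from 250 before each start to 50 after it, were taken from a table of RefSeq promoters, which was used for 8 of the 10 genes, *ADSL* and *IMPDH2* being the other two. The windows of *PPAT* and *PAICS* share 236 bases. They were searched on both strands for the E-box CACGTG, the element bound by MYC and its partner MAX, for the cyclic AMP response element TGACGTCA, and for TGATGCAA, a composite element read by ATF4 with C/EBP factors. None of these 3 motifs overlapped another in the windows of these genes. The E-box was found for 4 genes, *PPAT*, *PAICS*, *ATIC* and *DHODH*, in 4 of the 12 windows of the 8 genes (*PAICS* and *GART* have 3 each), and in 7.26% of all 35116 windows. In *PPAT* and *PAICS* it is the same site, at 56435792 to 56435797 on chromosome 4, which lies 182 bases before the *PPAT* start and 40 bases after the *PAICS* start. *ATIC* had the E-box 46 bases before its start and again 29 bases after it, and *DHODH* 159 bases before. TGACGTCA was found in 1 of the 12 windows, that of *UMPS*, 47 bases before its start, and in 1.85% of all windows. TGATGCAA was in 0.866% of all windows and in none of the 12 windows of the 8 genes. The sites are printed on the strand of the gene, with the motif in capitals, to show which members share which letters.
PPAT, shared with PAICS: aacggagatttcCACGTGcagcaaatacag
ATIC, before the start: gggccggcgggcCACGTGataagcccggaa
ATIC, after the start: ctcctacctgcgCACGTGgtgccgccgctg
DHODH: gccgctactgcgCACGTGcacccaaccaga
UMPS: gacttcgcgggTGACGTCAtcggggcgccg

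The genes with an E-box in these windows included 2 that rose, *PPAT* and *ATIC*, and 2 that did not pass the threshold, *PAICS* and *DHODH*. Of the searched genes without one there, *GART* and *UMPS* rose, *PFAS* fell and *CAD* did not pass the threshold. *IMPDH2* and *ADSL*, which also rose, were not searched, nor was sequence outside the windows. A match of letters is a description and not a bound site.

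*PPAT* (ENSG00000128059) encodes the amidotransferase that commits PRPP to purine synthesis. Its FPKM was 10.6, 10.7 and 10.8 in the PBS libraries and 18.9, 18.9 and 20.005 in the PP libraries. All PP libraries lay well above all PBS libraries, and the PBS values were nearly identical. On the log2 scale the difference was 0.80 with a standard error of 0.04 (limma, adjusted p = 9.06e-08), and it ran from 0.75 to 0.85 over the alternative analyses. Between 1154 and 1239 counts stood behind the PBS values and between 2108 and 2414 behind the PP values. With PBS *PPAT* sat near the middle of the tested genes by level, at percentile 49.7.

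*GART* (ENSG00000159131) encodes a multifunctional enzyme that acts at several steps after PPAT and takes up formyl groups from folate. Its FPKM was 32.6, 30.1 and 30.5 with PBS and 36.2, 35.5 and 35.5 with PP. The groups did not overlap, although PBS replicate 1 lay closer to the PP libraries than the other two did. *GART* rose by 0.19 on the log2 scale with a standard error of 0.04 (limma, adjusted p = 0.00154).

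*PFAS* (ENSG00000178921), whose enzyme uses glutamine at the following step, went the other way. Its FPKM was 6.33, 7.29 and 6.30 with PBS and 5.03, 4.59 and 4.36 with PP. Every PP library was below every PBS library, with 1154 to 1257 counts per PBS library and 816 to 909 per PP library. *PFAS* had a log2 fold change of -0.43 with a standard error of 0.07 (limma, adjusted p = 0.000258), between -0.51 and -0.37 over the alternative analyses. RefSeq places *PFAS* at 8247608 to 8270486 on chromosome 17 of GRCh38. Its span overlaps that of *CTC1*, as the spans of *ADSL* and *ATIC* overlap those of *SGSM3* and *FN1*, and whether the counting used strand is not given in the sources used here.

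*PAICS* (ENSG00000128050) encodes a bifunctional enzyme that adds carbon dioxide and aspartate. Its FPKM was 58.5, 54.4 and 53.9 with PBS and 55.8, 58.4 and 60.4 with PP, so the groups overlapped. With 7108 to 8823 counts per library, the log2 fold change was 0.07 (95% interval -0.03 to 0.16, adjusted p = 0.203 from limma). An increase of the size seen for *PPAT* lies outside this interval. The spans of *PPAT* and *PAICS*, introns included, also overlap in the annotation, from 56410507, the start of the longest *PAICS* span, to 56435615, on opposite strands. Whether their exons overlap there was not examined. Reads from any exon bases that the genes share could be told apart only by strand.

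The ratio of *PAICS* to *PPAT* was compared within each library. Scaling between libraries cancels in the plain FPKM ratio, and only approximately once 1 is added to each FPKM. The FPKM of *PAICS* was 5.53, 5.09 and 5.01 times that of *PPAT* with PBS, and 2.95, 3.08 and 3.02 times with PP. The log2 ratio of FPKM + 1 fell from 2.28 ± 0.075 (SD, n = 3) to 1.55 ± 0.030 (SD, n = 3), a difference of -0.73 with no overlap (exact two-sided permutation test, p = 0.1, adjusted p = 0.2 over 4 pairs of genes). With 3 libraries against 3 this test cannot give a P below 0.1.

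**Figure D1:**
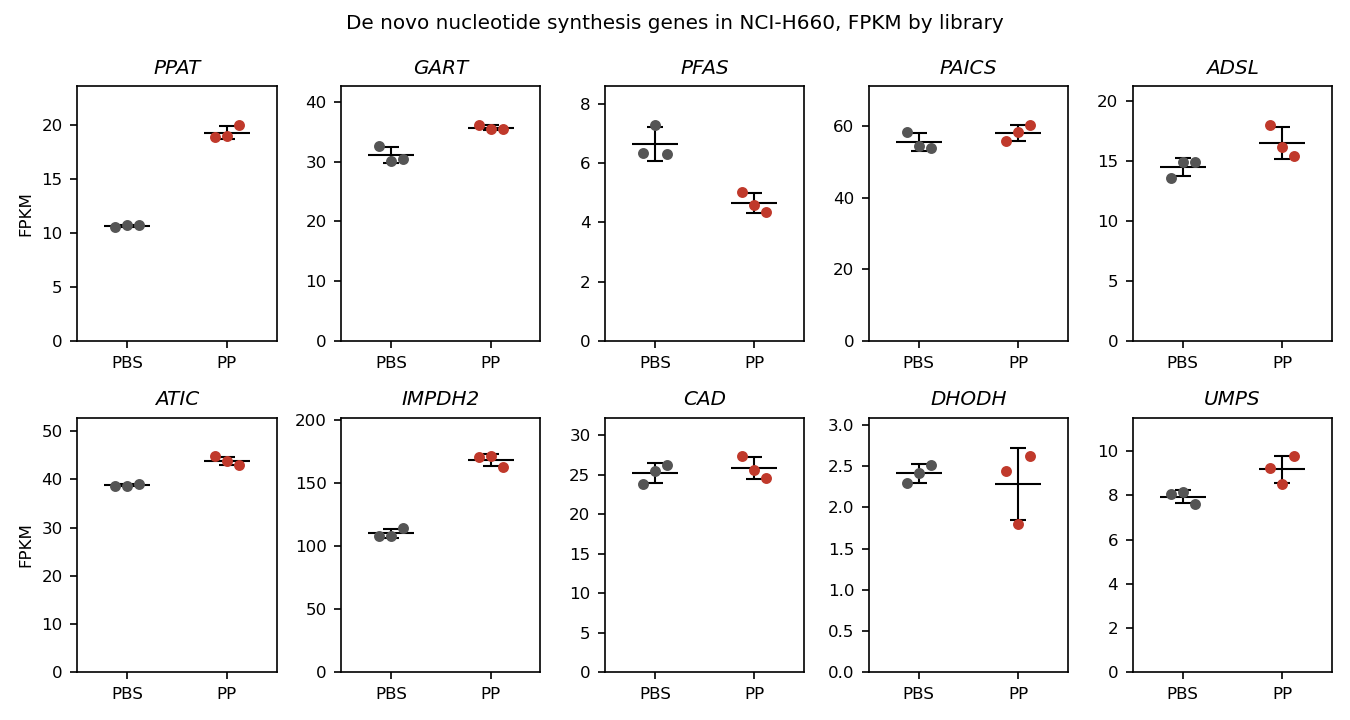
FPKM (linear axis from 0) of the 10 genes in each PBS library (grey points) and PP library (red points), with the mean and SD of 3 libraries as black bars. *PPAT*, with 18.9 to 20.005 FPKM in the PP libraries against 10.6 to 10.8 with PBS, and *IMPDH2* separate most clearly, *PFAS* is lower with PP, and *PAICS*, *CAD* and *DHODH* overlap.

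*ADSL* (ENSG00000239900) encodes the lyase that releases fumarate, once on the way to IMP and again between IMP and AMP. Its FPKM was 13.6, 14.9 and 14.9 with PBS and 17.98, 16.1 and 15.4 with PP. The groups did not overlap, but the gap between the nearest libraries was small. *ADSL* rose by 0.18 on the log2 scale with a standard error of 0.06 (limma, adjusted p = 0.0252). Without PBS replicate 1 or without PP replicate 1 the call was lost, with an adjusted p of 0.0914 and 0.0919, and over all alternatives the adjusted p ran from 0.00812 to 0.0919.

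*ATIC* (ENSG00000138363) encodes the bifunctional enzyme that closes the ring to IMP. Its FPKM was 38.6, 38.6 and 39.0 with PBS and 44.7, 43.8 and 43.0 with PP. The PBS libraries were tightly grouped and every PP library was higher. *ATIC* rose by 0.17 on the log2 scale with a standard error of 0.03 (limma, adjusted p = 0.00105), 0.16 to 0.19 over the alternatives.

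*IMPDH2* (ENSG00000178035) encodes the dehydrogenase that turns IMP into xanthylate, the step that limits guanine nucleotide synthesis. Its FPKM was 108.1, 108.2 and 114.5 with PBS and 170.4, 171.2 and 162.4 with PP. The 2 groups were far apart relative to their spread. The difference was 0.60 on the log2 scale with a standard error of 0.04 (limma, adjusted p = 2e-07), with 5464 to 6164 counts per PBS library and 8911 to 9171 per PP library. *IMPDH2* was also the most abundant of the 10 transcripts in both groups, and at percentile 96.0 of all tested genes with PBS.

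Its paralog *IMPDH1* encodes an enzyme for the same reaction. The FPKM of *IMPDH1* was 11.9, 13.5 and 14.02 with PBS and 12.8, 12.3 and 11.7 with PP, and the groups overlapped (log2 fold change -0.09, adjusted p = 0.222 from limma, 0.0332 to 0.585 over the alternatives, the lowest without PBS replicate 1). Within the libraries, *IMPDH2* was 9.09, 8.04 and 8.16 times as abundant as *IMPDH1* with PBS and 13.3, 13.9 and 13.9 times with PP. The log2 ratio of FPKM + 1 rose by 0.69 without overlap (exact two-sided permutation test, p = 0.1, adjusted p = 0.2 over the 4 pairs). The 2 genes are similar in sequence, and reads that fit both could be assigned to either.

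Among the pyrimidine genes, *CAD* (ENSG00000084774) encodes the large multifunctional enzyme of the opening steps and is a classical MYC target. The FPKM of *CAD* was 23.8, 25.5 and 26.2 with PBS and 27.3, 25.5 and 24.6 with PP. These ranges overlapped, and the log2 fold change was 0.04 (95% interval -0.08 to 0.15, adjusted p = 0.556 from limma) with 5439 to 6194 counts per library. It was at -0.004 without PBS replicate 1 and without PP replicate 1.

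*DHODH* (ENSG00000102967) encodes the dehydrogenase of the inner mitochondrial membrane that passes electrons to ubiquinone, which ties pyrimidine synthesis to respiration. Its FPKM was 2.29, 2.42 and 2.52 with PBS and 2.44, 1.79 and 2.62 with PP. PP replicate 2 was the lowest and PP replicate 3 the highest of all 6, so the PP libraries spread around the PBS libraries. *DHODH* had the lowest level of the 10, with 161 to 255 counts per library and percentile 11.4 among the tested genes with PBS. The log2 fold change was -0.06 (95% interval -0.27 to 0.15, adjusted p = 0.569 from limma), and without PP replicate 2 it was 0.05.

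*UMPS* (ENSG00000114491) encodes the bifunctional enzyme that joins the pyrimidine ring to PRPP and yields UMP. Its FPKM was 8.06, 8.15 and 7.60 with PBS and 9.24, 8.52 and 9.76 with PP. The groups were separate, with PP replicate 2 nearest to the PBS libraries. *UMPS* rose by 0.19 on the log2 scale with a standard error of 0.06 (limma, adjusted p = 0.0144, 0.00271 to 0.0558 over the alternatives), and the call was lost without PBS replicate 3 or without PP replicate 3, at an adjusted p of 0.0558 and 0.0539.

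*CAD* was compared with the later pyrimidine genes within each library. The log2 ratio of *CAD* to *UMPS* was 1.55 ± 0.106 with PBS and 1.398 ± 0.129 with PP (SD, n = 3 each), with overlapping libraries (exact two-sided permutation test, p = 0.3, adjusted p = 0.4). That of *CAD* to *DHODH* was 2.94 ± 0.023 and 3.04 ± 0.214 (SD, n = 3 each), again overlapping (exact two-sided permutation test, p = 0.7, adjusted p = 0.7).

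**Figure D2:**
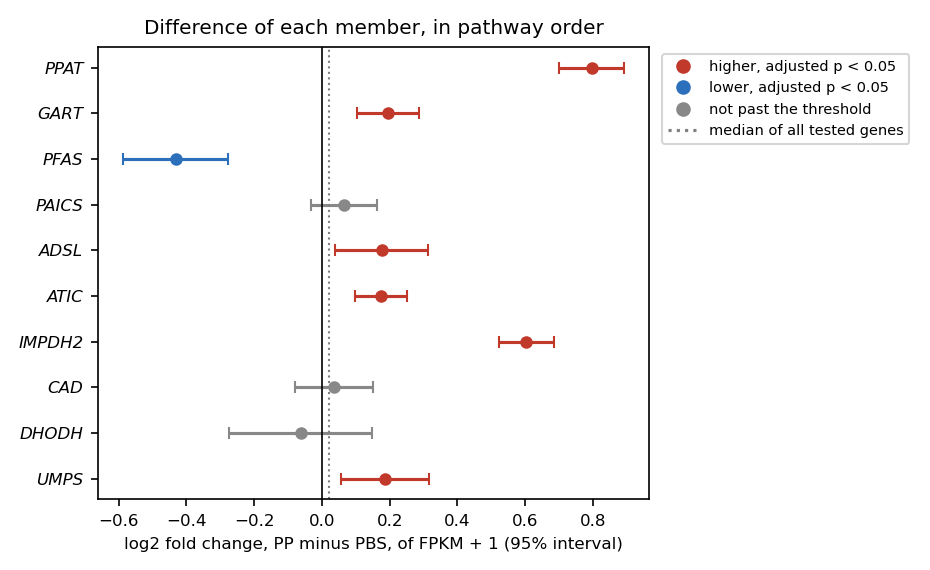
Log2 fold change (PP minus PBS, of FPKM + 1) of each gene with its 95% interval from limma, listed in pathway order. Red marks genes higher and blue genes lower at an adjusted p under 0.05, grey marks the 3 genes that did not pass, and the dotted line is the median of all tested genes, 0.02.

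Without regard to the fit, the 3 PP values were all above the 3 PBS values in 6 of the 10 genes and all below them in 1, and they overlapped in 3. The same held for 39.5% and 35.5% of all tested genes. In the purine ring, 4 of 6 genes were higher and 1 was lower, with a median log2 fold change of 0.18. In the pyrimidine ring, 1 of 3 was higher and none was lower, with a median of 0.04. The difference between the 2 routes was not tested.

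The levels of the 10 genes spanned a wide range. From the highest to the lowest mean FPKM with PBS, the order was *IMPDH2* (110.3), *PAICS* (55.6), *ATIC* (38.7), *GART* (31.1), *CAD* (25.2), *ADSL* (14.5), *PPAT* (10.7), *UMPS* (7.94), *PFAS* (6.64) and *DHODH* (2.41). No neighbours in this order overlapped over the 3 PBS libraries. With PP the order was the same except that *PPAT*, at 19.3 ± 0.625 FPKM (SD, n = 3), stood above *ADSL*, at 16.5 ± 1.35 (SD, n = 3), and again no neighbours overlapped. The ratio of the highest to the lowest mean was 45.7 with PBS and 73.5 with PP. *PPAT*, the gene of the committing step, was thus among the less abundant transcripts of the route with PBS and moved up by a single place with PP.

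**Figure D3:**
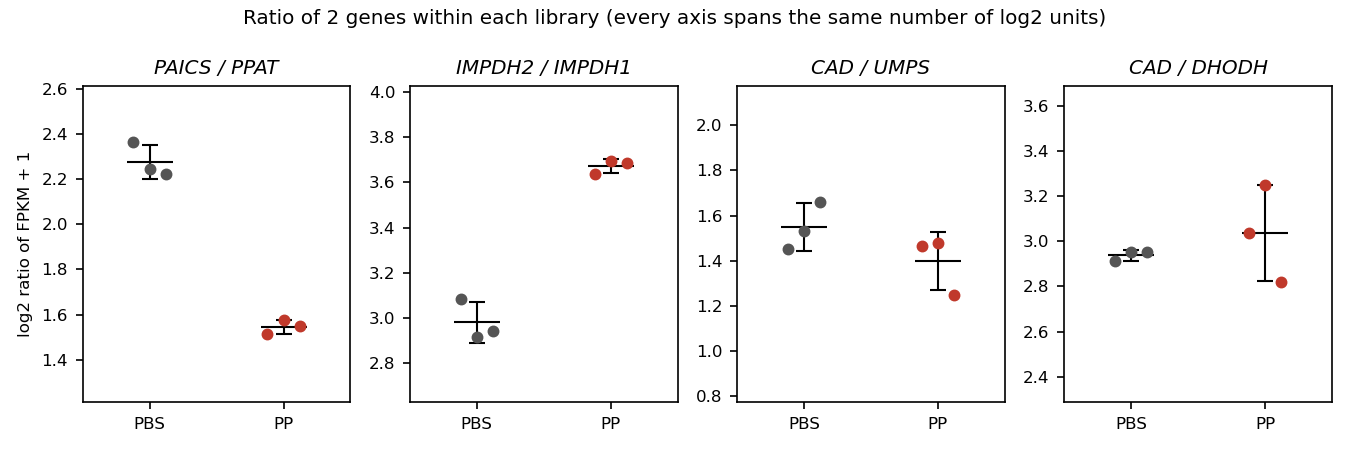
Log2 ratio of FPKM + 1 of 2 genes within each library for the 4 pairs compared, with grey points for PBS, red points for PP, and the mean and SD of 3 libraries in black; every axis spans the same number of log2 units and does not start at 0. *PAICS* relative to *PPAT* fell by 0.73 and *IMPDH2* relative to *IMPDH1* rose by 0.69, whereas both *CAD* ratios overlapped between the groups.

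The genes around these routes were described by lists written from general knowledge. PRPP, the sugar donor of both routes, is made by PRPS enzymes. Of the 4 PRPP genes tested, 1 was higher and 1 was lower. *PRPS2* fell from 50.6 ± 1.26 to 33.1 ± 1.20 FPKM (SD, n = 3 each), with a log2 fold change of -0.60 (adjusted p = 4.01e-07 from limma). *PRPS1*, for the sister isoform, was at 38.4 ± 1.67 and 36.3 ± 0.818 FPKM (SD, n = 3 each; adjusted p = 0.11 from limma, 0.033 to 0.311 over the alternatives, the lowest without PBS replicate 1). *PRPSAP2*, for an associated regulatory protein, rose by 0.23 on the log2 scale (adjusted p = 0.00334 from limma). In the PBS libraries *PRPS2* had a higher level than *PRPS1*, and in the PP libraries a lower one.

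After IMP, 2 of 8 genes were higher and 2 were lower. *GMPS*, which encodes the enzyme that follows IMPDH on the way to guanylate, rose from 26.3 ± 0.546 to 33.7 ± 1.28 FPKM (SD, n = 3 each), a log2 fold change of 0.34 (adjusted p = 3.22e-05 from limma). Both enzymes on the way from IMP to GMP, IMPDH2 and GMPS, thus had higher transcripts with PP. *ADSS1*, for an isoform of the enzyme that opens the adenylate branch, fell from 6.53 ± 0.533 to 4.13 ± 0.215 FPKM (SD, n = 3 each), a log2 fold change of -0.55 (adjusted p = 3.12e-05 from limma). The other isoform is encoded by *ADSS2*, which was more abundant, at 11.5 ± 0.832 FPKM with PBS and 12.8 ± 0.184 with PP (SD, n = 3 each). *ADSS2* was higher with PP by 0.15 on the log2 scale (limma, adjusted p = 0.033, 0.00584 to 0.13 over the alternatives), and its call was lost when any library but PBS replicate 1 was left out.

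After UMP, 3 of the 4 genes tested were lower and none was higher, and the fifth, *NME2*, was below the filter of a mean FPKM of 1. *NME1*, for a nucleoside diphosphate kinase, had a log2 fold change of -0.27 (adjusted p = 0.00359 from limma), and *CTPS1*, for the synthase that makes CTP, of -0.14 (adjusted p = 0.00781 from limma). *NME1* and *NME2* are neighbouring and near-identical genes, and reads could be assigned to either of them.

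The deoxynucleotide genes were mostly lower, with 5 of 7 past the threshold, none higher and a median log2 fold change of -0.32. Their summed FPKM was 426 to 430 with PBS and 315 to 320 with PP. *RRM2*, for the subunit of ribonucleotide reductase that is known to be made in S phase, fell from 69.7 ± 1.27 to 39.4 ± 1.57 FPKM (SD, n = 3 each). This was -0.81 on the log2 scale with a standard error of 0.04 (limma, adjusted p = 4.01e-08). At the other end, *DTYMK*, for thymidylate kinase, had a log2 fold change of -0.32 (adjusted p = 0.000911 from limma), and *RRM1* and *TYMS*, named here after their values were seen, were also among those lower. Against this, the 10 genes of de novo synthesis had a median of 0.18.

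In the salvage list, whose enzymes reuse bases and nucleosides, 3 of 11 genes were higher and 4 were lower. *UCK2*, for a uridine-cytidine kinase, rose by 0.43 on the log2 scale (adjusted p = 0.000115 from limma), and *APRT*, for the enzyme that salvages adenine, had a log2 fold change of -0.57 (adjusted p = 4.9e-05 from limma). In the breakdown list, 4 of the 9 genes tested were higher and 4 were lower, and 8 others were below 1 FPKM in every library. *UPP1*, for uridine phosphorylase, had 6.33, 5.86 and 5.26 FPKM with PBS and 34.3, 32.3 and 31.6 with PP. This was a log2 fold change of 2.31 with a standard error of 0.06 (limma, adjusted p = 5.92e-10), above that of any of the 10 members. *SAMHD1*, for the enzyme that degrades deoxynucleotides, fell from 11.6 ± 0.305 to 6.30 ± 0.431 FPKM (SD, n = 3 each), a log2 fold change of -0.79 (adjusted p = 6.46e-07 from limma).

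In the list for supply of folate-bound carbon to purines and thymidylate, 6 of the 10 genes tested were higher and 1 was lower. It held 7 folate enzymes, of which 4 were higher and 1 was lower, and 3 genes of serine synthesis, of which 2 were higher. *ALDH1L2*, for a mitochondrial dehydrogenase of formyl folate, rose from 1.32 ± 0.193 to 9.87 ± 0.458 FPKM (SD, n = 3 each; log2 fold change 2.23, adjusted p = 1.92e-09 from limma), and the cytosolic *SHMT1* had a log2 fold change of -0.47 (adjusted p = 5.93e-06 from limma). Over these 8 lists, the regulators below included, 19 of the 56 genes tested were higher and 20 were lower, which is 33.9% and 35.7% beside 38.1% and 34.4% of all tested genes.

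**Figure D4:**
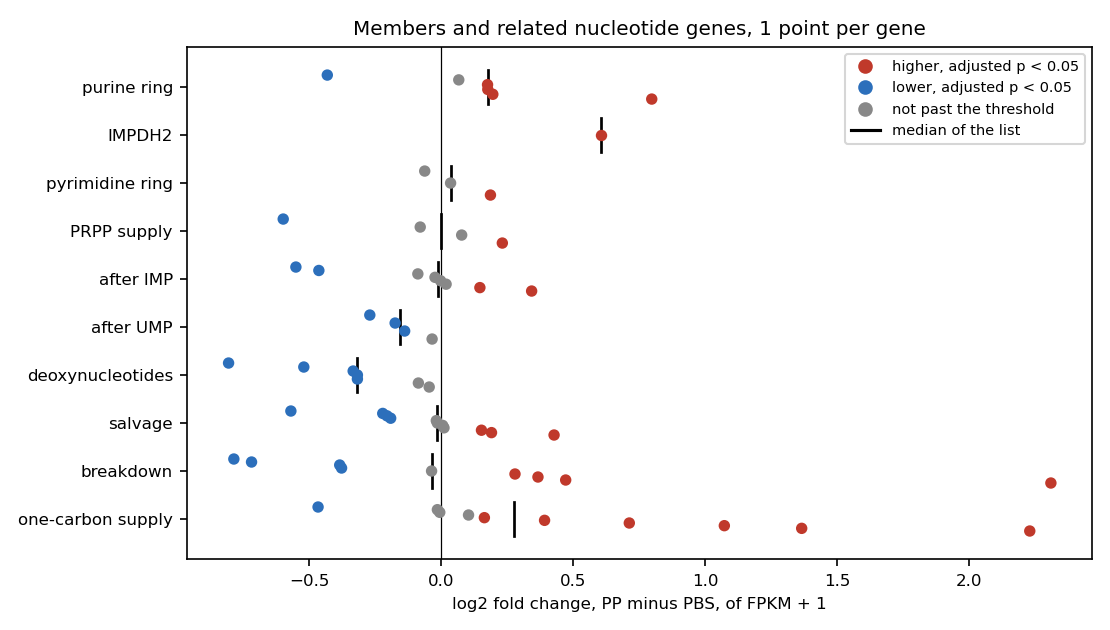
Log2 fold change (PP minus PBS, of FPKM + 1) of every tested gene of de novo synthesis (the upper 3 rows) and of the 7 related lists other than the regulators, 1 point per gene, with the list median as a black line. The de novo genes lie between -0.43 and 0.80, the deoxynucleotide genes lie at or below -0.046, and *UPP1* and *ALDH1L2* lie furthest to the right, at 2.31 and 2.23.

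Of the transcription factors known to act on these genes, *MYC* rose by 2.77, *ATF4* by 0.65 and *MAX* by 0.52 on the log2 scale (adjusted p = 1.75e-10, 6.76e-07 and 1.59e-05 from limma). *MYCN* was listed at 0.939, 0.535 and 0.796 FPKM with PBS and at 0.498, 0.355 and 0.175 with PP, from 15 to 76 counts per library, and was below the filter for the test. The part of these factors in the members' changes was not tested.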

How the data were processed

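The authors deposited FPKM values for 17177 gene symbols in 6 libraries (TruSeq stranded mRNA kit, paired-end reads). The methods name Bowtie on hg19, RSEM, Cufflinks and HTSeq, whereas the submitters' processing notes list fastp, HISAT2, HTSeq and GRCh38, and the file does not settle which made the values. Coordinates are RefSeq's on GRCh38 and were not taken from the file.

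A filter kept the 11726 genes, all 10 members among them, whose FPKM averaged 1 or more, and these were fitted on log2(FPKM + 1) with limma 3.58.1 in R 4.3.3 (lmFit, then eBayes with trend). Benjamini-Hochberg adjustment covered all of them. A fold change on this scale understates that of low genes. Counts were recovered from the FPKM steps to within 0.01 of a count. Pairs of genes were compared by exact permutation over libraries in Python 3.11.15 with scipy 1.17.1. The fit and the recovery were tested on simulated data.

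The members and lists were chosen with earlier results of these data known. Named by rule were all members, the called genes at each end of every related list, and *IMPDH1*, *GMPS*, *PRPS1*, *PRPS2*, *CTPS1*, *MYC*, *MYCN* and *ATF4*. *NME2*, *ADSS2*, *RRM1* and *TYMS* were named after their values were seen. The luminal markers *KLK2* and *KLK3* were not analysed here. Values of some single genes are not reported here.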

Additional observations from a re-analysis of the deposited data

How the results depend on the processing

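The alternatives were a pseudocount of 0.1, no filter or a mean FPKM of at least 5, median-ratio scaling, quantile normalization, no eBayes trend, limma-voom on recovered counts, each replicate left out and a replicate block. *PPAT*, *GART*, *ATIC*, *IMPDH2* and *PFAS* kept their direction and call under all of them, and between 5 and 6 members were higher and 1 was lower. *ADSL* lost its call without the filter (0.18), with quantile normalization (0.13) and with the block (0.18), and *UMPS* did so only with a library left out. *CAD* changed sign with quantile normalization (-0.01). With each replicate left out in turn the log2 fold change was 0.12 to 0.22 for *ADSL*, 0.14 to 0.23 for *UMPS*, -0.004 to 0.069 for *CAD* and -0.14 to 0.05 for *DHODH*. *CAD* was at -0.004 without PBS replicate 1 and without PP replicate 1, and *DHODH* was at 0.05 without PP replicate 2. *DHODH* was not tested with the filter of 5, which it did not reach. Past the cutoff of the study, 531 genes were lower with a pseudocount of 0.1 against 344, and limma-voom gave 559 lower and 397 higher (against 263). The cause was not tested for any of these.

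Deviations of same-numbered libraries from their group means correlated at -0.211, -0.014 and -0.127, so no effect shared by replicate number was visible. With 3 libraries per treatment this cannot decide whether the libraries were prepared in pairs. With the replicate block, 4260 genes passed the adjusted threshold upwards and 3878 downwards, against 4464 and 4032, and the adjusted p of *ADSL* was 0.0527. Depth limited *DHODH* most, at 161 to 255 counts per library.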
